A study of Homo sapiens with 12 samples.

Results

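The uninduced ALKBH7 line was set against the uninduced ALKBH4 line, each measured on 3 of the 12 arrays of the study, so the comparison rests on 6 arrays chosen by their sample titles. Both lines derive from Flp-In T-REx-293, a HEK293 (human embryonic kidney) host cell, and each carries a FLAG-tagged AlkB homolog, ALKBH4 in the one and ALKBH7 in the other, at a single genomic recombination site behind a tetracycline-inducible promoter. The cells of both groups grew in medium with tetracycline-free serum, blasticidin-S and hygromycin B, and doxycycline, which switched the transgene on in the other 6 arrays at 2 µg/ml, was not added. The study made these arrays as the control groups of 2 separate induction experiments. According to the methods, hygromycin-resistant single colonies were expanded, so a difference between the lines is a difference between independently derived colonies as well as between transgenes. Total RNA was hybridized to the Illumina HumanWG-6 v3 BeadChip, which reads each transcript with 1 or more bead-bound probes.

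ALKBH4 and ALKBH7 belong to the AlkB dioxygenases, enzymes that use iron and oxoglutarate to oxidize a substrate. ALKBH7 resides in mitochondria and takes part in necrotic cell death after alkylation damage, whereas ALKBH4 acts in the nucleus and cytoplasm and is known to demethylate a lysine of actin. The ATF4 pathway, the heat shock response and the mitotic programme are 3 well described transcription programmes that the gene lists below cover. Line, colony and array run cannot be told apart here, and no cause of a difference between the lines was tested.

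Intensities were quantile normalized over the 6 arrays and put on the log2 scale, and 14350 probes with a detection p under 0.01 on at least 3 of the 6 arrays were tested, for 9663 named genes. The raw arrays of the lines did not overlap in brightness. Their median intensity was 46.5 to 60.8 in the ALKBH4 line and 98.8 to 108 in the ALKBH7 line (exact two-sided permutation test, p = 0.1, n = 3 per line, the smallest p this design allows), and 28.7% to 30.7% against 26.4% to 28.8% of all probes were detected. Which arrays shared a chip or a run is not given in the sources used here, so line, colony and array run cannot be told apart. Uninduced replicate 1 of the ALKBH7 line stood apart, with a mean correlation of 0.94 with the other 2 arrays of its group and of 0.967 with the induced arrays of its line, so counts are also given without it. Whether this array was mislabelled or its cells partly induced was not tested, and the uninduced values of the ALKBH7 line are read with that limit. The methods give triplicate samples without saying whether these were separate cultures, and the p-values cover the spread among these arrays alone, which may be technical. Of the marker lists, no endothelial marker passed the detection filter while 5 blood cell markers did, among them LCP1 and CD68, but not PTPRC, CD3E or HBB. Of 35 kidney development genes 28 were on the array and 17 passed the filter. PAX2, PAX8, LHX1 and SIX2 were not among these 17, through lack of detection or of a probe. The identity of the cells was not tested with this list. The summed intensity of the kidney list was 4379 to 4724 in the ALKBH4 line and 4061 to 4359 in the ALKBH7 line, with 15 and 14 of 28 genes detected on all 3 arrays.

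The lines differed at about 1 probe in 5. In total 2980 probes, 20.8% of those tested, passed an adjusted p of 0.05 (limma with Benjamini-Hochberg adjustment, called below), 1715 of them higher (12%) and 1265 lower (8.82%) in the ALKBH7 line. More than 2-fold differences were found at 574 of the higher and 448 of the lower probes. Complete separation of the 3 arrays of one line from the 3 of the other was common, at 44% of all tested probes, and held for 2971 of the called ones. Without replicate 1 of the ALKBH7 line 2189 probes were higher and 2071 lower. The balance of directions depended on the scaling: with arrays scaled to a common median in place of quantile normalization, 181 probes were higher and 819 lower, and the median over all probes lay at -0.26 instead of -0.03. Of the 2980 calls, 816 were made in the same direction under that scaling and 0 in the opposite one. With each gene at its brightest probe, 1260 genes were higher and 763 lower, and 133 and 494 under that scaling. Without replicates 1, 2 and 3 of the ALKBH4 line 400, 928 and 335 genes were higher and 115, 568 and 81 lower. Without those of the ALKBH7 line 1608, 722 and 804 were higher and 1298, 329 and 459 lower. Counts of a gene list in these settings are read beside these.

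The ALKBH7 transcript itself was higher in the line that carries the ALKBH7 transgene, although no inducer had been added. Its log2 intensity was 7.68, 7.62 and 7.59 in the ALKBH4 line and 9.44, 8.98 and 8.92 in the ALKBH7 line. The groups did not overlap, with replicate 1 of the ALKBH7 line the highest. The difference was 1.49 ± 0.18 (SE, adjusted p = 0.00332), and between the induced lines it was 5.32. The ALKBH4 probe read 7.64, 7.59 and 7.29 in the ALKBH4 line and 7.80, 7.17 and 7.21 in the ALKBH7 line, overlapping values with a difference of -0.11 ± 0.21 (adjusted p = 0.721). The study places this probe in the untranslated part of the gene, outside the transgene, so it does not check the labels. Of the other AlkB family members, FTO, a demethylase of N6-methyladenosine, was 1.13 ± 0.18 higher (adjusted p = 0.00654) and ALKBH3, a repair demethylase of alkylated DNA and RNA, 0.71 ± 0.18 higher (adjusted p = 0.0275). With ALKBH7 itself counted, 3 of the 9 measured family members were called higher and 0 lower, against 13% and 7.9% of all genes. Median scaling left 1 call, with a family median of 0.

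Among genes detected in both lines, the largest differences upwards were at GDF15, DYRK1B and AMOT, and DDIT4 was also among the 12 highest. GDF15, a stress-induced cytokine of the TGF-beta superfamily, read 6.80, 6.52 and 6.54 in the ALKBH4 line, where 2 of 3 arrays detected it, and 10.01, 8.69 and 9.30 in the ALKBH7 line. All ALKBH7 arrays thus lay above all ALKBH4 arrays, by 2.71 ± 0.30 (adjusted p = 0.00267). DDIT4, an inhibitor of mTORC1 signalling, rose from 10.18, 9.75 and 9.55 to 12.21, 12.05 and 11.79, a difference of 2.19 ± 0.21 (adjusted p = 0.00267). DYRK1B, a kinase linked to quiescence, read 6.52, 7.16 and 7.04 against 9.10, 9.61 and 9.57 and differed by 2.52 ± 0.22, with 1.74 at its other probe. AMOT, a junctional scaffold that binds the Hippo effector YAP, gave 7.41, 7.36 and 7.65 against 9.27, 10.24 and 10.30, a difference of 2.46 ± 0.27. None of these genes overlapped between the lines. The remaining genes of the 12 highest lay between 2.13 and 2.43 and were UBALD1, PTMS, the corepressor ATN1, the cell adhesion gene PCDH19, the zinc finger factor MAZ, the deadenylase subunit CNOT3, the basement membrane proteoglycan AGRN, and AKNA. The other probes of ATN1 and MAZ gave 0.91 and 1.54.

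**Figure D1:**
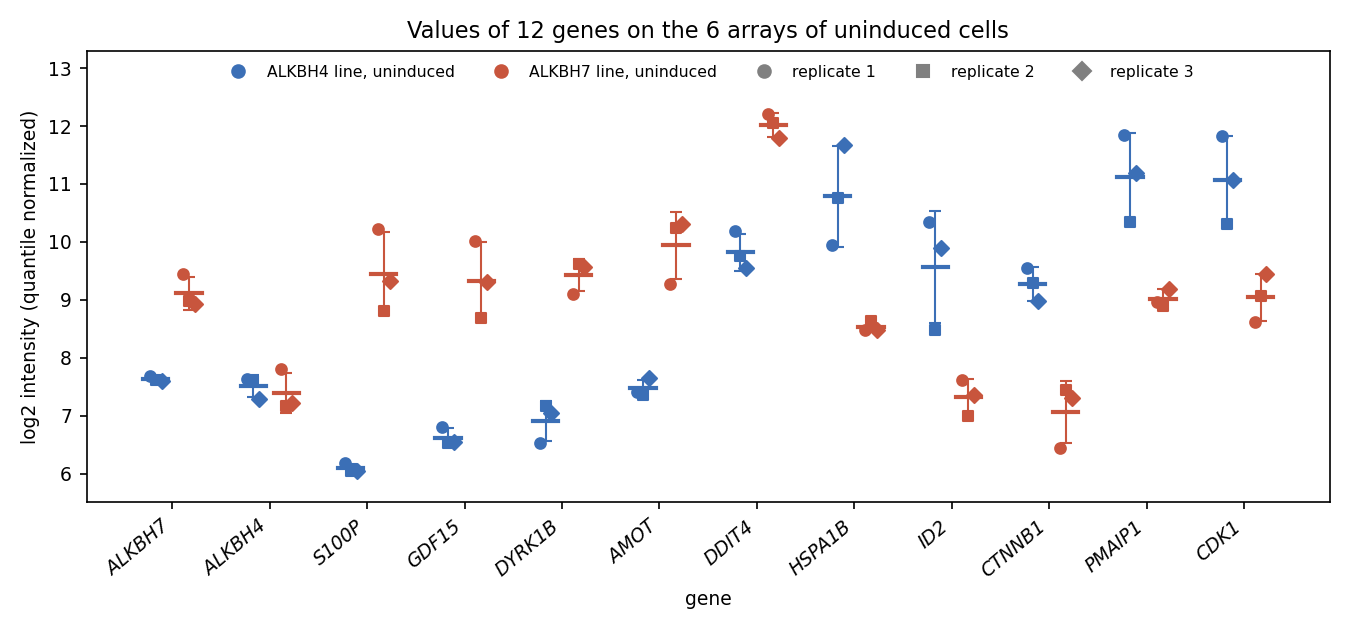
Quantile normalized log2 intensity of 12 genes on the 6 arrays of uninduced cells, 1 point per array with its replicate number as the marker shape; lines are means and whiskers the SD over 3 arrays. ALKBH4 overlapped between the lines, and the other 11 genes did not, with 6 of them higher and 5 lower in the ALKBH7 line.

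Downwards, the largest differences were at cytoskeletal, chaperone, signalling and cell cycle genes. ACTG1, cytoplasmic gamma actin, read 12.98, 13.21 and 13.07 in the ALKBH4 line and 7.60, 11.65 and 11.08 in the ALKBH7 line. Replicate 1 lay far below the other arrays of its line, and the difference of -2.98 ± 0.87 (adjusted p = 0.0431) became -1.69 without it. The brighter ACTG1 probe gave -0.19. ID2, an inhibitor of DNA-binding helix-loop-helix factors, fell from 10.34, 8.48 and 9.89 to 7.62, 7.00 and 7.35, a difference of -2.24 ± 0.42 (adjusted p = 0.0111), with -0.83 at its brighter probe. CTNNB1, which encodes beta-catenin, gave 9.55, 9.29 and 8.98 against 6.44, 7.44 and 7.30, or -2.21 ± 0.28 (adjusted p = 0.00351), and -1.93 at its other probe. For PMAIP1, which encodes the BH3-only protein NOXA, the values were 11.85, 10.34 and 11.19 against 8.97, 8.89 and 9.19, a difference of -2.11 ± 0.33, with -1.15 at its other probe. All 4 genes read lower on each ALKBH7 array than on any ALKBH4 array. The other lowest genes were HSPA1B and CDK1, described with their groups, ATG4B (-2.09), CRTAP (-2.08, with 0.11 at its other probe), the m6A writer subunit WTAP (-2.03, with -1.06 and -1.14), the mRNA export factor ALYREF (-2.01, with -0.45 and -1.41 at its other probes), GNG12 (-1.98) and the initiation factor subunit EIF3M (-1.97, with -0.71).

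Some genes were detected on every array of one line and on none of the other. For these only a lower bound of the fold is given, from the mean of the bright line over that of the dim line, in which an array counts with the weakest signal of any probe detected there where the probe's own value is lower. This held for 147 genes in the ALKBH7 line and 176 in the ALKBH4 line, a pattern that the detection filter itself favours. Among genes with this pattern at every probe kept, the largest bound was that of S100P, a calcium-binding S100 protein, with 10.23, 8.81 and 9.32 in the ALKBH7 line against 6.18, 6.04 and 6.05, hence at least 7.76-fold higher (adjusted p = 0.00267). Detected on 3 arrays only, it no longer passed the detection filter without any one of the ALKBH7 arrays. The next named bounds towards the ALKBH7 line were at least 2.09-fold for PRODH, the proline dehydrogenase of mitochondria, and at least 1.82-fold for TLNRD1. Detected in the ALKBH4 line alone were MIX23, at least 3.18-fold lower in the ALKBH7 line with 8.44, 7.99 and 8.32 against 6.29, 6.35 and 6.27, and AFMID, a formamidase of tryptophan breakdown, at least 2.95-fold lower. CCN3, a matricellular protein, and USF1, an E-box transcription factor, were at least 2.15-fold and 2.11-fold lower, and ANKRD1, a target of YAP, at least 2.07-fold lower. HSPA4, a co-chaperone of HSP70, was at least 1.92-fold lower.

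Genes driven by ATF4 stood higher in the ALKBH7 line. ATF4 is the transcription factor translated when the initiation factor eIF2 is phosphorylated, as under amino acid shortage or stress of the endoplasmic reticulum or mitochondria, and its targets cover amino acid synthesis and transport, tRNA charging and stress regulators. Of 45 measured targets 18 were called higher and 2 lower, with a median difference of 0.46, whereas over all genes, each at its brightest probe, 13% were called higher and 7.9% lower with a median of 0.0. Without replicate 1 of the ALKBH7 line the counts were 23 and 3, with probes detected on all 6 arrays 15 and 2, and with median scaling 7 and 4, at a median of 0.07. Without replicate 3 of the ALKBH4 line they were 9 and 0. Over all genes the counts in the same order of settings were 1608 and 1298, 1010 and 559, 133 and 494, and 335 and 81. TRIB3, a pseudokinase that restrains this pathway, read 9.68, 9.28 and 8.74 in the ALKBH4 line and 11.33, 10.80 and 10.86 in the ALKBH7 line, a difference of 1.76 ± 0.26 (adjusted p = 0.00547). PYCR1, a mitochondrial enzyme of proline synthesis, rose from 7.39, 7.16 and 7.04 to 9.62, 9.19 and 8.69, by 1.97 ± 0.24 (adjusted p = 0.00332). SESN2, an inhibitor of mTORC1, gave 7.23, 7.25 and 6.91 against 8.71, 8.69 and 8.68, a rise of 1.56 ± 0.16. In none of these genes did the lines overlap.

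Regulators and enzymes were both among the called targets. Named after their values were seen, the factors ATF5 (1.54), DDIT3, also called CHOP (1.46), CEBPB (1.22), CEBPG (1.16) and the chromatin protein NUPR1 (1.57) were all called higher. The ATF4 transcript itself read 13.40, 12.58 and 13.10 in the ALKBH4 line and 12.62, 12.19 and 12.34 in the ALKBH7 line, overlapping values with a difference of -0.64 ± 0.23 (adjusted p = 0.0815). ASNS, asparagine synthetase, also overlapped, at 13.70, 13.26 and 12.92 against 13.32, 13.87 and 14.07, or 0.46 ± 0.26 (adjusted p = 0.224), and it read -0.34 under median scaling. The 2 targets called lower were SLC3A2, the heavy chain of the amino acid transporter CD98 (-1.44 ± 0.36, adjusted p = 0.0255), and NARS1, the cytosolic asparaginyl-tRNA synthetase (-1.30 ± 0.32, adjusted p = 0.0261). Among all 34 measured aminoacyl-tRNA synthetases 2 were called higher, WARS1 (0.83) and VARS2 (0.73), and NARS1 was the only one called lower. Both counts lay below the 13% and 7.9% of all genes called higher and lower, and the median of these synthetases was 0.0.

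Since these targets carry amino acid response elements in their regulatory regions, the promoters of the list were searched. The letters TGATGNAA were looked for on both strands in the 300-base RefSeq windows of GRCh38.p14, from 250 bases before to 50 after the annotated start, in which 3.67% of 27305 promoters hold them. Of 38 measured targets with a window 11 held a match, but of the 15 called higher with a window only ATF3 and CHAC1 did. SLC3A2 and NARS1, the 2 targets called lower, each held a match as well. The matches of ATF3, CHAC1 and ASNS are shown in 30 bases of the gene's own strand, with the match in capitals.
ATF3 (chr1:212565205-212565234, + strand): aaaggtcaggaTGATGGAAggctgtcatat
CHAC1 (chr15:40953251-40953280, + strand): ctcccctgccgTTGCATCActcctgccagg
ASNS (chr7:97872458-97872487, - strand): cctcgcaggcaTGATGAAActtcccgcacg
The match of CHAC1 lies on the reverse strand. ATF3, a stress-induced factor, was 0.80 ± 0.19 higher and CHAC1, a glutathione-degrading enzyme detected in the ALKBH7 line alone, at least 1.49-fold higher. A match is a description of the sequence and shows no binding, and elements outside the window were not searched.

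Chaperones and co-chaperones of the heat shock response stood lower in the ALKBH7 line. HSF1 induces these genes when unfolded proteins accumulate in the cytosol, and their products fold, hold or disaggregate other proteins. Of 20 measured genes 11 were called lower and 1 higher, against 7.9% and 13% of all genes, with a median of -0.73. The counts were 13 lower and 2 higher without replicate 1 of the ALKBH7 line, 8 and 1 with detection on all 6 arrays, and 8 and 0 with median scaling. They dropped to 4 and 0, 7 and 1, and 2 and 0 without replicates 1, 2 and 3 of the ALKBH4 line. Without replicate 2 of the ALKBH7 line they were 5 and 0. Over all genes those called lower dropped from 763 to 115, 568, 81 and 329 without the same arrays. HSPA1B, an inducible HSP70 nearly identical in sequence to HSPA1A, read 9.94, 10.75 and 11.67 in the ALKBH4 line and 8.47, 8.64 and 8.47 in the ALKBH7 line, a difference of -2.26 ± 0.37 (adjusted p = 0.00732). The ALKBH4 arrays spread widely but each lay above the ALKBH7 arrays. FKBP4, a co-chaperone of HSP90, gave 10.14, 10.58 and 10.31 against 9.45, 8.56 and 8.69 and fell by 1.44 ± 0.25 (adjusted p = 0.00879), while the HSP110 family member HSPH1 fell by 1.27 ± 0.34. The cytosolic HSP90 genes moved in opposite directions: HSP90AA1 fell by 0.75 ± 0.22 (adjusted p = 0.0441) and HSP90AB1, the constitutive form, 0.83 ± 0.21 higher (adjusted p = 0.0261) and the only list member called higher. The HSF1 transcript itself gave -0.08 ± 0.18 (adjusted p = 0.766).

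The heat shock element, searched as GAANNTTCNNGAA on both strands of the same windows, was found in 0.487% of all promoters and in 4 of 18 list members with a window. Of the 10 called lower with a window, DNAJA1 and CHORDC1 held it, shown here with the match in capitals.
DNAJA1 (chr9:33025267-33025296, + strand): cgccgggcgGAACTTTCCAGAAcgctcggt
CHORDC1 (chr11:90223089-90223118, - strand): gcgcgaccgGAAAATTCGCGAAggttcctg
DNAJA1, an HSP40 co-chaperone, was 11.19, 11.51 and 11.48 in the ALKBH4 line against 9.93, 10.31 and 10.63, a difference of -1.10 ± 0.21 (adjusted p = 0.0113). CHORDC1, a partner of HSP90, gave 8.34, 7.29 and 8.01 against 6.25, 6.71 and 6.85, or -1.27 ± 0.28 (adjusted p = 0.0184). Neither overlapped between the lines. The remaining matches were in HSPA8 and DNAJB6, which were not called.

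Other protein folding and degradation genes held fewer calls. The chaperonin TRiC folds actin and tubulin, and prefoldin delivers them to it. Of its 13 measured genes 2 were called lower and 0 higher, few to set against the 7.9% of all genes called lower, with a median of -0.50. TCP1, its alpha subunit, gave 9.58, 8.44 and 9.56 against 7.65, 7.57 and 7.56, or -1.60 ± 0.29 (adjusted p = 0.0102), with -1.92 and -0.02 at its other probes. CCT6A differed by -0.98 ± 0.23. Of 32 measured proteasome genes 6 were called lower and 0 higher, with a median of -0.31. The lower count was 12 without replicate 1 of the ALKBH7 line, 3 without its replicate 2 or replicate 1 of the ALKBH4 line, and 2 without replicate 3 of the ALKBH4 line. Over all genes 1298, 329, 115 and 81 were lower without the same arrays. PSMC4, an ATPase of the 19S regulatory particle, read 11.48, 11.47 and 11.33 against 8.77, 10.08 and 9.75, a difference of -1.89 ± 0.30 (adjusted p = 0.00674), and its other 2 probes gave -1.87 and -1.85. PSMA2, PSMA1 and PSMD6 lay between -0.94 and -0.78. Of 25 genes of the unfolded protein response in the endoplasmic reticulum 4 were called higher and 0 lower, near the 13% of all genes called higher. Between the induced lines 6 of 23 were higher and 9 lower, beside 3180 higher and 2482 lower of all 9301 genes. The 4 genes were the chaperone HYOU1 (1.19 ± 0.17), CALR, encoding calreticulin (0.75), CRELD1 (0.75) and the translocon subunit SEC61A1 (0.59). With median scaling the list had no call, and it had 1 call when any one of the ALKBH4 arrays was left out.

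**Figure D2:**
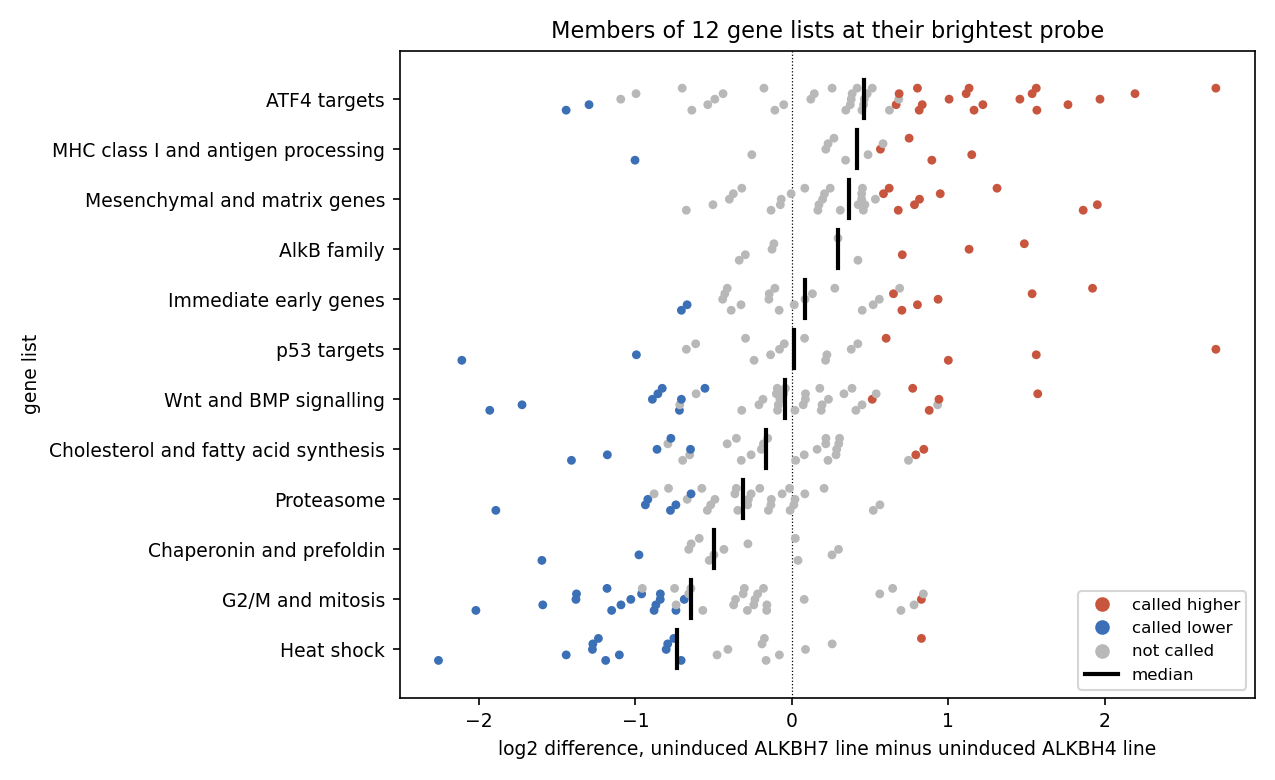
Log2 difference between the uninduced lines for each measured member of 12 gene lists, 1 point per gene at its brightest probe, coloured by the call, with the median of the list as a black bar. ATF4 targets reached 2.71 and had 18 genes called higher, whereas 11 heat shock genes and 15 mitotic genes were called lower.

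Mitotic genes stood lower in the ALKBH7 line. They encode the kinases, cyclins, checkpoint proteins and kinesins that carry a cell through division, and their transcripts peak in G2 and M phase, so their level in a culture also moves with the share of dividing cells. Of 39 measured genes 15 were called lower and 1 higher, against 7.9% and 13% of all genes, with a median of -0.65. The counts were 18 and 4 without replicate 1 of the ALKBH7 line and 13 and 0 with median scaling, but 5 and 0 without replicate 3 and 7 and 0 without replicate 1 of the ALKBH4 line. Over all genes those called lower numbered 1298, 494, 81 and 115 in the same order of settings. CDK1, the kinase that triggers mitosis, read 11.82, 10.30 and 11.06 in the ALKBH4 line and 8.62, 9.06 and 9.44 in the ALKBH7 line. These values did not overlap and differed by -2.02 ± 0.37 (adjusted p = 0.00982), with -1.88 at the other probe. BUB1, a checkpoint kinase, gave 9.81, 9.40 and 9.66 against 7.64, 8.13 and 8.32, or -1.59 ± 0.21 (adjusted p = 0.00398). For CDC20, which activates the anaphase-promoting complex, the values were 12.50, 12.63 and 12.59 against 11.65, 11.07 and 10.88, or -1.38 ± 0.21 (adjusted p = 0.00602), and the centrosomal kinase NEK2 also differed by -1.38, with -0.33 at its other probe. BIRC5, the passenger protein survivin, gave -1.18. FOXM1, a transcription factor of the G2 programme, was the only member called higher (0.83 ± 0.19, adjusted p = 0.0202).

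The cell cycle genes homology region, searched as TTTGAA on both strands, was held by 18 of 30 mitotic genes with a promoter window, compared with 15.4% of all promoters. Among the 12 called lower with a window 6 held it, and 3 of these matches are shown because their genes are described here.
CDK1 (chr10:60778158-60778187, + strand): gagtataataaaTTTGAActgtgccaatgc
CDC20 (chr1:43358791-43358820, + strand): cctctcgtacccTTCAAAtcgcgctccgcc
CKS2 (chr9:89311154-89311183, + strand): cgggctgtcggaTTCAAAtccggatcgttg
In CDC20 and CKS2 the match lies on the reverse strand. CKS2, a small subunit that binds CDK1, fell by 0.96 ± 0.28 (adjusted p = 0.0426). The 3 motifs were searched separately, a promoter counted once however many matches it held, and the short letters of the last one are frequent by themselves.

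Of 42 measured genes of G1/S and DNA replication 5 were called lower and 4 higher, beside 7.9% and 13% of all genes. Of these 42 genes 32 lay below 0, with a median of -0.16. With median scaling 5 were lower and 0 higher, at a median of -0.78. Between the induced lines 16 were lower and 8 higher, beside 2482 lower and 3180 higher of all 9301 genes. PCNA, the sliding clamp, read 11.26, 10.23 and 11.10 in the ALKBH4 line and 9.23, 8.96 and 9.26 in the ALKBH7 line, a difference of -1.71 ± 0.27 (adjusted p = 0.00603), with -0.69 at its other probe. RRM2, a subunit of ribonucleotide reductase, fell by 1.51 ± 0.44 and the clamp loader subunit RFC2 by 1.25 ± 0.30, with -0.06 at its other probe. Higher were LIG1, the replicative ligase (1.26 ± 0.17, adjusted p = 0.00411), and, named after their values were seen, the polymerase subunits POLE (1.13) and POLD1 (0.99) and the helicase subunit MCM2 (0.74). The 13 measured replication-dependent histone genes lay between -0.35 and 0.38. Of 18 p53 targets 4 were called higher, GDF15 and SESN2, which are also ATF4 targets, PHLDA3 (1.00) and XPC (0.60), and 2 lower, PMAIP1 and CCNG1 (-0.99). CDKN1A, the p21 inhibitor, gave 0.38 ± 0.18 (adjusted p = 0.16) and MDM2 -0.14 ± 0.18.

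Several matrix genes were higher. Of 32 measured mesenchymal and matrix genes 9 were called higher, 0 lower and 23 not called, with a median of 0.37, against 13% and 7.9% of all genes called higher and lower. The summed intensity of the list overlapped between the lines, at 19254 to 21683 in the ALKBH4 line and 19072 to 22130 in the ALKBH7 line. The counts were 12 and 0 without replicate 1 of the ALKBH7 line, 7 and 0 with detection on all 6 arrays, 3 and 0 without replicate 1 or replicate 3 of the ALKBH4 line, 5 and 0 without replicate 3 of the ALKBH7 line, and 2 and 1 with median scaling. Over all genes those called higher numbered 1608, 1010, 400 or 335, 804 and 133 in the same order of settings. COL6A1, a chain of collagen VI, read 6.89, 7.22 and 7.19 in the ALKBH4 line and 9.19, 9.14 and 8.82 in the ALKBH7 line, a difference of 1.95 ± 0.18 (adjusted p = 0.00267). FBLN1, the matrix protein fibulin-1, gave 8.01, 8.23 and 8.02 against 10.23, 9.82 and 9.80, or 1.86 ± 0.18, with 0.85 and 0.46 at its other probes, and the laminin chain LAMA1 rose by 1.31 ± 0.17. None of these 3 genes overlapped between the lines. The called members encode matrix or contractile proteins, and the mesenchymal regulators ZEB1 (-0.50), ZEB2 (-0.40) and TWIST1 (0.20) and the filament VIM (-0.67 ± 0.28, adjusted p = 0.119) were not called.

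Of 39 measured Wnt and BMP pathway genes 5 were called higher and 8 lower, with 19 above and 20 below 0. The 5 called higher were near the 13% of all genes called higher, while 7.9% were called lower. The secreted Wnt antagonist SFRP1 read 7.02, 7.01 and 7.15 against 8.24, 8.79 and 8.85, a rise of 1.57 ± 0.20 (adjusted p = 0.0034), and the ligand WNT5B rose by 0.94 ± 0.17. Named after their values were seen, the receptor ROR1 (0.77) and the nuclear effector TCF7L2 (0.88) were also higher. Among the genes called lower, ID3, a direct BMP target, fell from 10.01, 10.26 and 10.20 to 8.71, 8.07 and 8.51, a difference of -1.72 ± 0.20 (adjusted p = 0.00281). ID1 (-0.71), ID2 (-0.83 at its brightest probe), the ligand BMP2 (detected in the ALKBH4 line alone, at least 1.38-fold lower), the inhibitory SMAD6 (-0.86) and SMAD5 (-0.72) moved the same way, beside CTNNB1 and LGR4. The BMP antagonist FST was 0.51 higher.

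Marker genes of other identities were read beside the 13% of all genes called higher and the 7.9% called lower. Of 19 measured neuronal and adrenal markers, a group that HEK293 cells are known to express in part, 4 were called higher, the synaptic vesicle protein SYP (1.60 ± 0.17, adjusted p = 0.00267), CRMP1 (1.42 ± 0.20), ENO2 (0.96) and INSM1 (0.86), and 1 lower, CNTN1, detected in the ALKBH4 line alone (at least 1.35-fold lower). The summed intensity of this list was 7169 to 8273 in the ALKBH4 line and 9183 to 10288 in the ALKBH7 line, and TH and DBH did not pass the detection filter. Of 14 epithelial markers 1 was called, CLDN1 (-0.78), and LCP1, an actin-bundling protein of the blood cell list, read 10.82, 11 and 10.81 against 9.36, 9.48 and 9.55, or -1.41 ± 0.15 (adjusted p = 0.00267). The macrophage marker CD68 differed by -1.17 ± 0.25, with -0.65 and -0.25 at its other probes. Of the 5 measured blood cell markers these 2 were called and 3 were not, and 2 of the 5 lay above 0. Of 23 HOX genes HOXC4 was called higher (9.46, 9.51 and 9.70 against 10.83, 11.07 and 11.33, or 1.52 ± 0.18) and HOXD13 lower (-0.62). Among 12 genes of MHC class I and antigen processing 4 were called higher, TAPBP (1.15), HLA-F (0.89, with 0.13 at its other probe), CALR and HLA-B (0.57), whereas the light chain B2M was lower (-1.0 ± 0.28, adjusted p = 0.0364).

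Some immediate early genes, which respond within minutes to growth factors or handling, were higher. Of 25 measured 6 were called higher and 2 lower, against 13% and 7.9% of all genes, with a median of 0.08. Between the induced lines 7 of 24 were higher and 8 lower, at a median of -0.11. Of all 9301 genes measured there 3180 were higher and 2482 lower. EGR1 read 8.51, 10.05 and 9.82 in the ALKBH4 line and 10.61, 11.73 and 11.81 in the ALKBH7 line, a difference of 1.92 ± 0.44 (adjusted p = 0.0205). In both lines replicate 1 was the lowest, yet the groups did not overlap. FOS gave 6.90, 6.85 and 7.02 against 8.0, 8.71 and 8.66, or 1.53 ± 0.21 (adjusted p = 0.0044). Median scaling left 1 of the 6 called.

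Of 13 housekeeping genes 1 was called higher, the polymerase subunit POLR2A (1.19), and 3 lower, TFRC (-1.25), B2M and IPO8 (-0.63), with a median of -0.60. Over all genes 13% were called higher and 7.9% lower.

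In cholesterol and fatty acid synthesis 5 of 28 genes were called lower, led by INSIG1, the sterol-dependent anchor of SREBP (-1.41 ± 0.42), SC5D (-1.18) and ELOVL6 (-0.86, with -0.43 at its other probe), and 2 higher, DHCR7 (0.84, with 0.10 at its other probe) and the regulator SREBF1 (0.79). The mitochondrial ribosome had 6 of 75 genes called higher, among them MRPL55 (1.41, with -0.33 and 1.25 at its other probes), MRPL2 (1.38) and MRPL12 (1.17), and 9 lower, among them MRPL47 (-1.08 at both of its probes). These counts were 0 and 10 with median scaling and 7 and 22 without replicate 1 of the ALKBH7 line. For the respiratory chain encoded in the nucleus the counts were 3 and 3 of 65, with SDHD, a membrane anchor of complex II, at -1.62 ± 0.32 and ATP5MC2 at 0.98 ± 0.22. The other probes of ATP5MC2 gave 0.37 and 0.45. In the citric acid cycle IDH2 was 1.26 ± 0.19 and OGDH 0.98 higher (-0.02 at its other probe), while SUCLG2 (-1.30 ± 0.22) and PDHA1 (-0.72) were lower. Glycolysis had 2 of 23 genes called higher, PKM (1.45 ± 0.29, with 0.76 and 1.43 at its other probes) and ENO2, and 1 lower, SLC2A3 (-0.77). Of 69 cytosolic ribosomal protein genes, families with many processed pseudogenes that probes can share, 2 were called higher and 3 lower, but 0 and 20 with median scaling, at a median of -0.81, and 5 and 15 without replicate 1 of the ALKBH7 line. RPL37 (1.51) gave 0.20 and RPS26 (1.11) -0.54 at another probe. The spliceosome had 6 of 41 called lower, among them SRSF1 (-0.85) and HNRNPC (-0.77), and 1 higher, SF3B5 (0.84). All these counts under quantile normalization of the 6 arrays stand beside 13% of all genes called higher and 7.9% called lower. With median scaling 133 of all genes were higher and 494 lower, and without replicate 1 of the ALKBH7 line 1608 and 1298. With quantile normalization the respiratory chain, glycolysis and the cytosolic ribosome lay below both shares.

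Chromosomes did not contribute evenly. Of 443 measured genes on chromosome 16, 115 were called higher and 8 lower, 26% and 1.81%, with a median difference of 0.33. Chromosomes 19 (142 higher and 27 lower of 664, median 0.20) and 22 (50 and 10 of 236, median 0.18) followed, whereas chromosome 13 had a median of -0.21 (12 and 21 of 188) and chromosome 4 of -0.16 (18 and 40 of 340). Between the induced lines the medians were 0.35, 0.23 and 0.25 on chromosomes 16, 19 and 22 and -0.29 and -0.12 on chromosomes 13 and 4. Windows of 25 neighbouring measured genes, in the order of GRCh38.p14, were ranked by their median, which picks them by value and gives no test. The highest was on chromosome 16 from MCRIP2 to NME3, with a median of 0.81 and 16 genes called higher, among them MAPK8IP3 (1.83), NME3 (1.57) and FBXL16 (1.43), and 0 lower. Next came the stretch from XPO6 to TAOK2 on the same chromosome, with 0.75 and 13 genes higher, among them MAZ, ATXN2L (1.97) and KCTD13 (1.74), and that from MIER2 to CIRBP on chromosome 19, with 0.70. The lowest windows lay on chromosome 1, from ALG6 to ACADM (-0.54, with GNG12, CRYZ and LRRC40 called lower) and from CNN3 to EEIG2 (-0.52), and on chromosome 2 from NUP35 to MOB4 (-0.48).

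**Figure D3:**
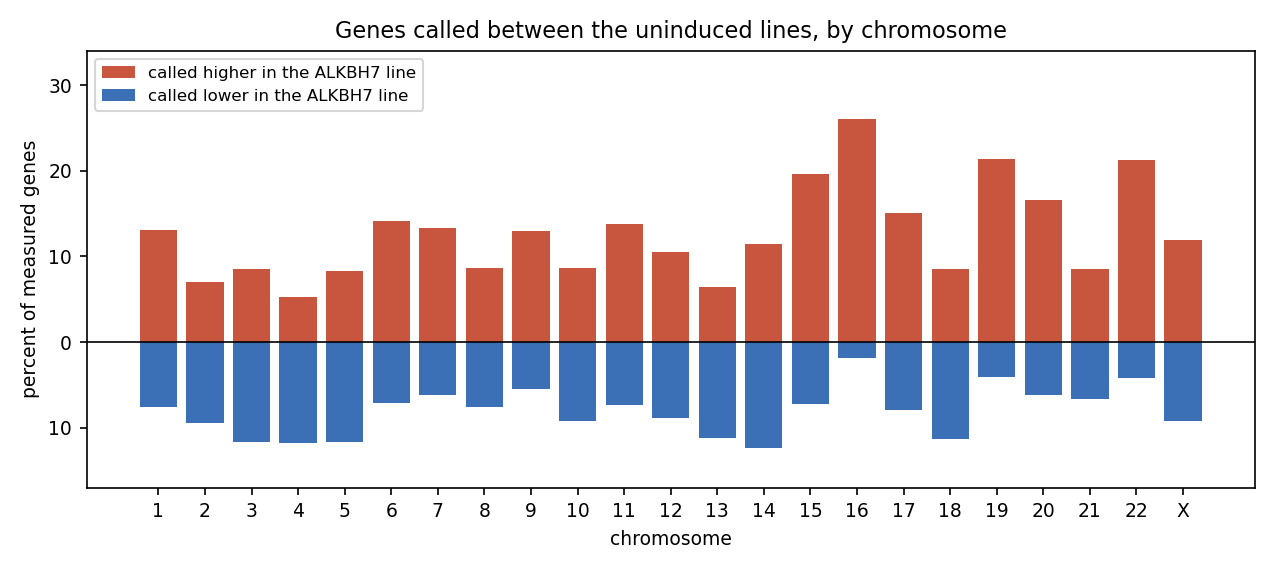
Percent of the measured genes of each chromosome called higher (above 0) or lower (below 0) in the uninduced ALKBH7 line, each gene at its brightest probe. Chromosome 16 had 26% of its genes called higher and 1.81% lower, while on chromosome 4 the percentages were 5.29 and 11.8.

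Chromosomes 16, 19 and 22 are gene-dense and rich in G and C. Promoter composition was set beside the differences, a description added after seeing the data. Of the measured genes 82.8% had a promoter window. With these genes in 5 groups by GC content, the median log2 difference was -0.06 in the lowest group (27% to 57%) and 0.12 in the highest (74% to 94%), and the share called higher went from 8.84% to 18.6%. In the highest group the median deviation of an array was -0.15, -0.02 and -0.04 in the ALKBH4 line and 0.16, 0.06 and 0.07 in the ALKBH7 line, so that replicate 1 of each line was the most extreme. Across genes the correlation between promoter GC content and the difference was r = 0.113, where all genes share the same 6 arrays. The part of base composition in the chromosome medians was not tested.

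Where a gene had several probes they often differed in the size of the difference. For 2108 genes with 2 probes that passed the filter, both were called in 160 and 1 of 2 in 603. When both were called, 148 genes had the same direction and 12 opposite ones, and over all of them 67.5% had the same sign. PCDH7, a protocadherin, was an example of disagreement, with -0.76 ± 0.17 at its brightest probe and 0.91 at the other, whereas CTNNB1, CDK1, PSMC4 and MRPL47 gave like values at each probe. Calls at single probes therefore stand for that probe.

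The same difference between lines was also measured on the 6 arrays of induced cells, which the uninduced comparison did not use but which carry the same colonies and may share array runs with it. There 61.8% of the tested probes were called. Of the 2883 uninduced calls that were also tested in induced cells, 2771 (96.1%) had the same direction, compared with 78% of all probes, and 2439 (84.6%) were called in that direction again, whereas 19 were called in the opposite one. Across 13518 probes the 2 differences correlated with r = 0.753. Among the list members, 20 of the 20 called ATF4 targets, 11 of the 12 heat shock genes and 15 of the 16 mitotic genes called were called in the same direction in induced cells. The induced differences were 3.01 for AMOT, 3.03 for PCDH19, 3.07 for DDIT4, 1.74 for S100P, 1.30 for DYRK1B and 0.92 for UBALD1. The respiratory subunit UQCRB gave -0.83 in uninduced and 0.42 in induced cells, and the ribosomal protein RPL21 -1.45 and -0.04. For none of these 8 genes did the difference between uninduced and induced cells pass the test over 12 arrays (limma, adjusted p of 0.058 for S100P to 0.564 for AMOT).

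**Figure D4:**
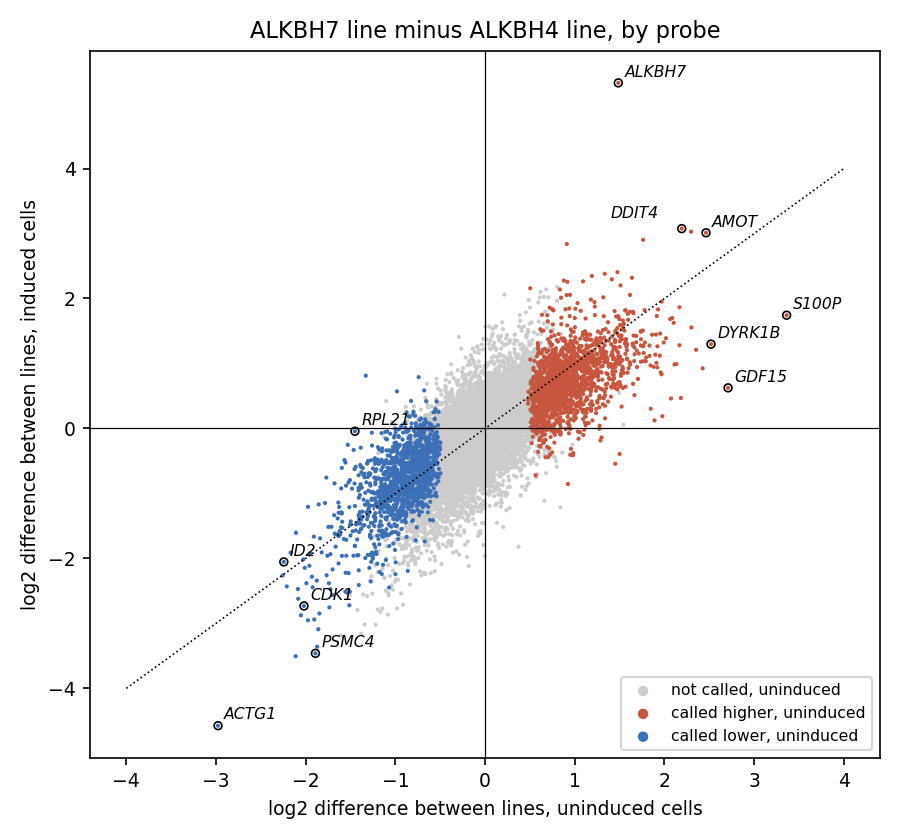
Log2 difference between the lines in uninduced cells (x axis) and in induced cells (y axis), 1 point per probe tested in both, coloured by the call in uninduced cells; the dotted line marks equal differences. ALKBH7 lies at 1.49 and 5.32 and GDF15 at 2.71 and 0.62, and r across the 13518 probes was 0.753.

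A test of the difference between these differences, with all 12 arrays in one fit, called 11 of 15444 probes (0.0712%), 9 of them more negative in uninduced cells. Only GDF15 and ENO3, the muscle form of enolase, were more positive there, ENO3 at 1 probe with 0.98 in uninduced and -0.38 in induced cells (adjusted p = 0.0144, named after its value was seen), while its other probe gave 0.74 and 0.30. ALKBH7 led the negative ones, with a difference of -3.69 (adjusted p = 8.45e-06). The count of 11 moved with replicate 1 of the uninduced ALKBH7 line: without it 3334 probes were called, 1879 more positive and 1455 more negative in uninduced cells.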

How the data were processed

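The deposited bead table holds, per the file headers, an average intensity and a detection p-value for each of 48803 probes on 12 arrays, which the authors exported from GenomeStudio without normalization. A second deposited table holds intensity values that the authors quantile normalized, used here as an alternative. Each column was matched to a sample by its name, and "Control" was read as uninduced.

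The 6 arrays of uninduced cells were quantile normalized together, put on the log2 scale without background correction, and fitted with limma (3.58.1, R 4.3.3; lmFit and eBayes, Benjamini-Hochberg adjustment over all 14350 probes). Probes were kept with a detection p under 0.01 on at least 3 of 6 arrays. The induced arrays were treated likewise, and the difference of differences was fitted over all 12. The scripts were tested on simulated data. Figures were drawn with matplotlib 3.10.9 in Python 3.11.15.

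GEO's platform annotation gave 1 gene symbol for 27578 probes, several for 13 and none for 21212. Matching to RefSeq by gene identifier, done for 27537 probes, changed no symbol. RefSeq also gave the promoter sequences and gene order (GRCh38.p14). A list member was represented by its brightest probe. The genes named were ALKBH7 and ALKBH4, the 12 highest and 12 lowest non-overlapping called genes detected in both lines, up to 10 per direction detected in one line alone, up to 4 called genes per list and the ends and up to 3 called genes of 6 windows, without Y-linked genes and XIST. Other genes named were chosen after their values were seen. Members and lists were chosen with earlier results of these data known. The number of arrays limits the precision. No 2 arrays held the same values. Alternatives covered background correction, normalization, filters, thresholds, probe choice, array weights, a replicate block and leaving out each array.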

Additional observations from a re-analysis of the deposited data

Results flagged for a closer look

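The difference between the lines itself differed between uninduced and induced cells for 2 named genes, in a limma fit over all 12 arrays, normalized together, with a term for it. For ALKBH7 the uninduced line difference minus the induced one was -3.69 in that fit (adjusted p = 8.45e-06). For GDF15 it was 2.21 (adjusted p = 0.0445). The separate fits of 6 arrays gave ALKBH7 1.49 in uninduced and 5.32 in induced cells, and GDF15 2.71 and 0.62. The GDF15 call was lost with median scaling, with the replicate block and in most fits without 1 array, in which 0 probes were called more positive in uninduced cells.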

How the results depend on the processing

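Of the 2980 calls (1715 higher, 1265 lower; by gene 1260 and 763), median scaling left 1000 (181 and 819; by gene 133 and 494), quantile normalization over 12 arrays gave 5661 (2988 and 2673; by gene 2156 and 1653) and array weights 7120 (3615 and 3505; by gene 2602 and 2204). An adjusted p of 0.01 left 626 (462 and 164; by gene 347 and 97), one of 0.1 gave 4562 (2117 lower; by gene 1298 lower), more than 2-fold 1022 (574 and 448; by gene 432 and 248), and detection on all 6 arrays 832 lower. Replicate numbers did not pair the samples (same-number correlations -0.229, 0.157 and -0.161), and with the replicate block 1935 were called (1092 and 843; by gene 807 and 489). Leaving out 1 array gave 586 to 4260 calls (439 to 2189 higher, 147 to 2071 lower; by gene 335 to 1608 and 81 to 1298). The total was 729, 2164 and 586 without replicates 1, 2 and 3 of the ALKBH4 line and 4260, 1553 and 1791 without those of the ALKBH7 line. Smaller lists moved with the same arrays: without replicate 1 or 3 of the ALKBH4 line 2 Wnt and BMP genes, 2 mitochondrial ribosome, 0 spliceosome and 0 cholesterol genes were called lower and 0 MHC genes higher, and without replicate 1 of the ALKBH7 line 9, 22, 9 and 7 lower and 5 higher. For the induced lines median scaling left 4666 calls and leaving out 1 array 6701 to 8154. For the difference of differences the count was 1 with median scaling, 1 with the replicate block and 1 to 3334 without 1 array. Signs turned with median scaling for PRAME (-0.06), H2BC12 (-0.31), CIRBP (-0.60), ASNS (-0.34) and CDKN1A (-0.19), with the mean of probes for PCDH7 (0.07) and HSF1 (0.03), and with array weights for ALG6 (0.41). Without 1 array they also turned, with a range of -0.01 to 0.11 for CIRBP, -0.33 to 0.36 for ALG6 and -0.15 to 0.05 for HSF1. Except for PCDH7, none of these genes was called. Over the named genes 3487 gene-setting pairs kept call and direction, 633 lost and 38 gained the call, and 13 turned. The cause of these changes was not tested, apart from the stricter and looser thresholds, which change the count by construction. Dim probes are limited by the raw background, whose undetected probes had medians of 42.9 to 55.7 in the ALKBH4 line and 92.1 to 99.2 in the ALKBH7 line.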
